A study of Mus musculus and Rattus norvegicus with 53 samples.

Results

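The connexins are the proteins that build gap junctions, and 8 of their genes, Gja1, Gja4, Gja5, Gjb1, Gjb2, Gjb5, Gjc1 and Gjc3, are followed here through intact, distal and bridge Schwann cells (SCs) of the mouse sciatic nerve. They were taken by symbol from the 20 connexin genes among the 24016 genes of the mouse count files. They were chosen by their levels in these same libraries, which were known from an earlier look at the data, so those levels, and the differences fitted from them, are given as a description. How many members passed the threshold of a main fit over all genes is printed beside the share of all genes that did, and nothing is read from it. Shares for leave-one-out fits are given as ranges at the end.

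All mice were tdTomSC reporters, in which a Cre transgene with a promoter active in the neural crest lineage switches on tdTomato from the Rosa26 locus, and each library came from tdTomato+ cells sorted after dissociation of the nerve. Males and females aged 6-8 weeks had 1 sciatic nerve transected. Intact SCs (iSCs) came from the contralateral nerve, distal SCs (dSCs) from the stump beyond the wound and bridge SCs (bSCs) from the tissue that joins the cut ends. In the pooled experiment each library held nerves of 3 mice at day 6, with 4 libraries each of iSCs, dSCs and bSCs. In the single-nerve time course each library came from 1 nerve, with 5 iSC libraries, 3 dSC libraries on each day sampled (1, 2 and every other day from 4 to 10) and 3 bSC libraries on each of days 4, 6, 8 and 10. The methods of the study describe recombination in most, not all, SCs of both the myelinating and the non-myelinating kind, so the sort holds a mixture of SC states.

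Connexin subunits assemble into hemichannels that dock with those of a facing membrane and let ions and small metabolites pass. In myelinating SCs the Gjb1 protein sits in the non-compact parts of the sheath, at paranodes and incisures, where it is thought to shorten the path between the outer and inner cytoplasm of the same cell, and human GJB1 mutations cause X-linked Charcot-Marie-Tooth neuropathy. Gjc3 protein lies at the innermost layer facing the axon, while Gja1 is the connexin of astrocytes, fibroblasts, cardiac muscle and many dividing cells. Gja4 and Gja5 are best known from arterial endothelium, Gjb2 and Gjb5 from epithelia, and Gjc1 from smooth muscle and the conduction system of the heart.

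Gene counts per library ran from 11435463 to 22617054 in the pooled experiment and from 9240883 to 22426128 in the time course, with 11735 to 14987 and 10042 to 15815 genes detected. The 7 SC markers summed to between 1258 and 11713 counts per 1000000 counts on genes (CPM) in the pooled libraries and between 167 and 4946 CPM in the single-nerve ones, and at least 6 of the 7 had a count in every library. Fibroblast markers summed to between 11025 and 60223 CPM over all 47 libraries, macrophage markers to between 239 and 17093 CPM and endothelial markers to between 178 and 6057 CPM, while epithelial markers reached at most 25.7 CPM. One distal and one bridge library of day 4, both labelled with the same animal and both replicate 1, were almost the same: the chi-square of their gene counts was 3.96 per degree of freedom, against 47.9 for the next nearest pair of libraries in the series and at most 1.32 between lanes of a single library. The 2 libraries held 182 and 160 CPM of Gja1, 4.23 and 5.60 CPM of Gja4, 15.5 and 10.33 CPM of Gjc3 and 0 CPM of Gjb1. Some of the values that rest on them are also given without them, and the others include both libraries.

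The genes lie on 7 chromosomes in the mm9 build used for the counts. Gjb1 occupies chrX:98571717-98580968 on the plus strand, Gjc3 chr5:138395037-138404187 on the minus strand and Gja1 chr10:56097106-56110225 on the plus strand. Gja4 (chr4:126988665-126991283) and Gjb5 (chr4:127032053-127035425) both lie on the minus strand of chromosome 4. Gja5 is at chr3:96708616-96881339, Gjb2 at chr14:57717437-57723539 and Gjc1 at chr11:102660893-102681014. An exon of Gja5 shares 165 bases with Gpr89 on the opposite strand, and since the libraries carry no strand, reads from that stretch cannot be told apart; no other member shares exon bases with another gene in the annotation used.

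Promoters are shown for the connexins with the clearest regional pattern, Gjb1 and Gjc3, which were highest in intact nerve of the pooled experiment, and Gja1, which was highest in the bridge. RefSeq (GRCm38.p6) gave 10 start sites for 7 of the 8 members, with Gjc1 not among them, and 4 of the 10 belong to Gjb1. Each line is the 250 bases before a start site, and capitals mark matches to the motifs searched on both strands.
Gjb1, start site 4, chrX:101383482-101383731, plus strand: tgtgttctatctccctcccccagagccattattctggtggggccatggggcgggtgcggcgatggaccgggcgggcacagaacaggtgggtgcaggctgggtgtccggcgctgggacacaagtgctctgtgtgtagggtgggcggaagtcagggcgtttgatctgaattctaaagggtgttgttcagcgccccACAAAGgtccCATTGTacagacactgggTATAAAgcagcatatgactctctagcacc
Gjc3, chr5:137963099-137963348, minus strand: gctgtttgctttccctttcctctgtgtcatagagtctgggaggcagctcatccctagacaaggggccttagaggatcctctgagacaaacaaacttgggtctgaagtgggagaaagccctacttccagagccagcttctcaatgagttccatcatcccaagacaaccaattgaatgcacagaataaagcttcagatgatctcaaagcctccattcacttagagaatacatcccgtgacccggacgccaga
Gja1, chr10:56377050-56377299, plus strand: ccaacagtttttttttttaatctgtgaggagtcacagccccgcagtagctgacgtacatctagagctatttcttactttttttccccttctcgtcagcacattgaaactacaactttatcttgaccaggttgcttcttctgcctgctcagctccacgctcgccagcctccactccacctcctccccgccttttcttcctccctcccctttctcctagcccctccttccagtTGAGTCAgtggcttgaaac

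The letters searched were ACAAAG and ACAATG, core motifs of SOX factors, GCGTGGGCG and GCGGGGGCG, motifs of EGR factors, TGANTCA, the AP-1 motif, and TATAAA, the TATA box. At Gjb1 start site 4, ACAAAG began 57 bases before the start, ACAATG on the opposite strand 47 bases before it, and TATAAA 29 bases before it. Start site 4 had the most matches of the 4 Gjb1 windows. Start site 1 held only ACAAAG, 176 bases before the start, and start sites 2 and 3 held none of the letters. The shares that follow are for 1 window, not for the best of 4. Over 32851 mouse windows of the same length, 16.5% held ACAAAG, 10.7% ACAATG and 12.4% TATAAA. At Gja1 the letters TGANTCA stood 19 bases before the start, and 6.75% of all windows hold them. None of the searched letters was found in the Gjc3 window. GCGTGGGCG occurred in 0.536% and GCGGGGGCG in 2.57% of all windows and in none of the 10 windows of the members. Which start site was in use was not measured by these counts.

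Gjb1 was high in intact and low in injured nerve of the pooled experiment. It measured 75.3, 99.1, 88.1 and 33.2 CPM in the 4 iSC libraries. The dSC libraries held 11.5, 3.03, 9.90 and 4.85 CPM, and the bSC libraries 0.224, 0.512, 9.02 and 3.45 CPM. Every intact library thus lay above every injured one, while distal and bridge libraries overlapped. Libraries did not overlap with iSCs for 17.0% of all genes in dSCs and 25.0% in bSCs. The fitted log2 fold change was -3.34 ± 0.94 (SE, n = 4 against 4) for dSCs against iSCs and -4.49 ± 1.00 for bSCs against iSCs, and the bridge was below its distal partner in 4 of 4 animal pools, with a difference of -1.15 ± 0.88. Without intact replicate 5 the distal value was -3.56 and passed the threshold (adjusted p under 0.05 over all genes in edgeR), which it did not with all libraries. In bulk libraries such as these, fewer cells that hold a transcript and less of it per cell cannot be told apart.

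**Figure D1:**
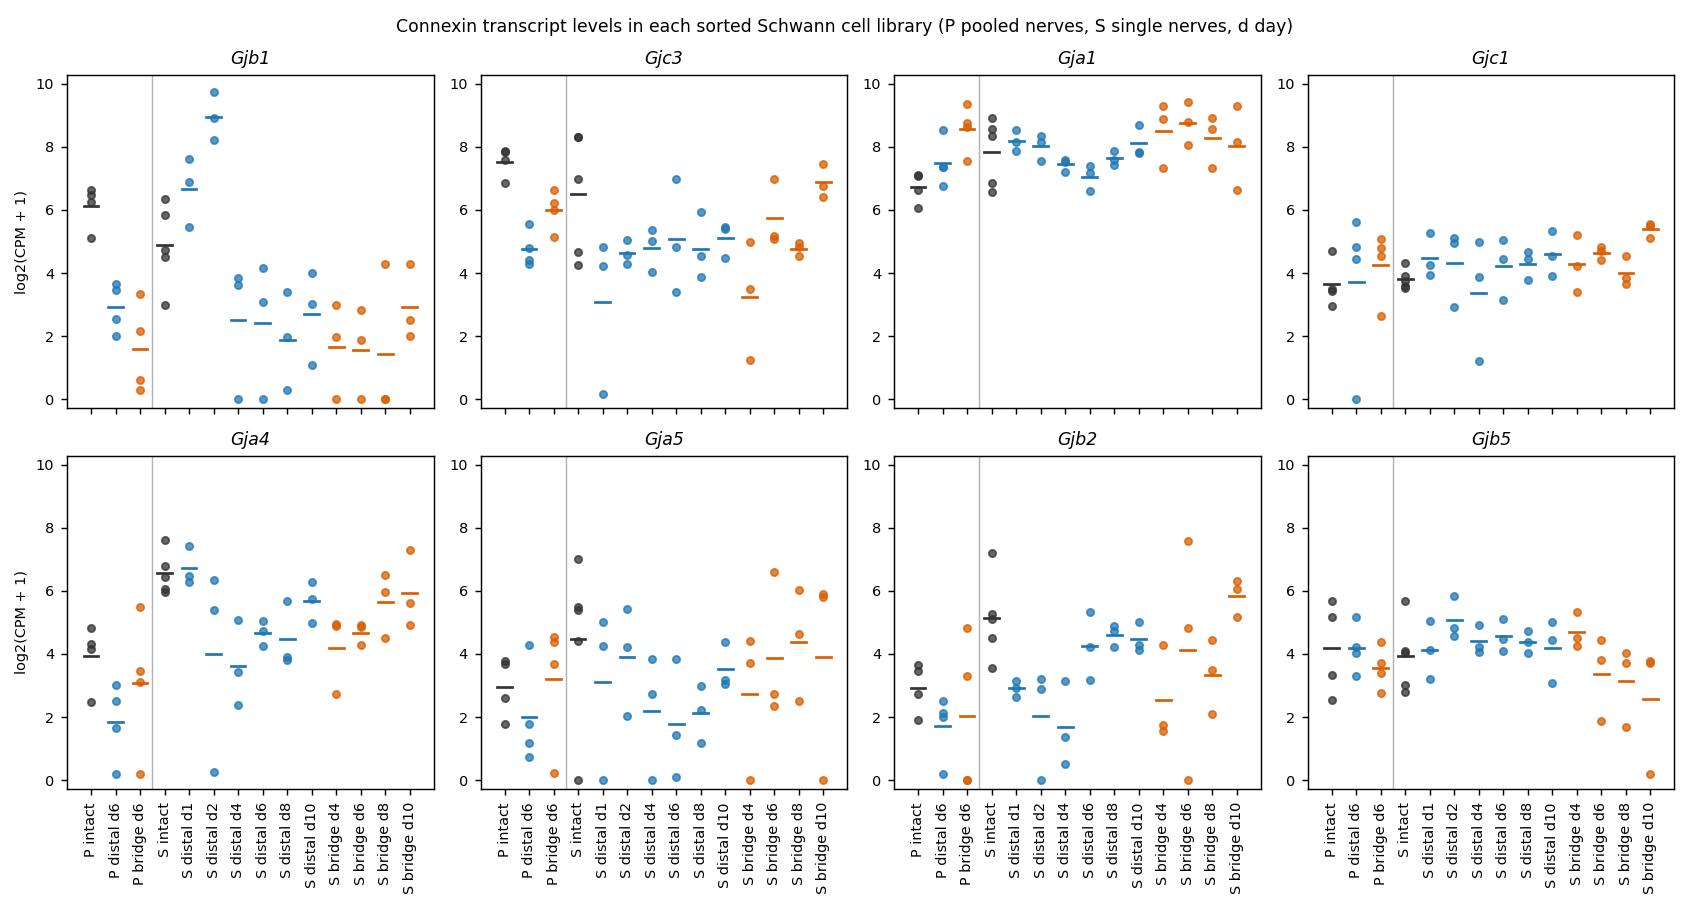
Each point is 1 library and each bar a group mean of log2(CPM + 1), with pooled (P) and single (S) nerves side by side and intact, distal and bridge groups in black, blue and orange. Gjb1 is highest on distal day 2, and among pooled nerves the mean of Gjc3 is highest in intact and that of Gja1 in bridge libraries.

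The time course added a phase that the day 6 libraries could not show. Single iSC libraries held 80.2, 55.8, 25.3, 21.6 and 6.99 CPM of Gjb1. On day 1 the 3 dSC libraries measured 42.9, 196 and 117 CPM, and on day 2 they measured 862, 298 and 486 CPM. All 3 day 2 libraries were above every intact one, a separation that 6.95% of all genes tested had in one direction or the other, whereas day 1 overlapped the intact range. The day 2 mean of 549 CPM compared with 38.0 CPM in iSCs, a log2 fold change of 3.85 ± 1.51 (SE, n = 3 against 5), and day 1 gave 1.65 ± 1.44. From day 4 the level was low, with 6 of the 24 libraries at 0. The distal means were 8.27, 8.13, 4.20 and 7.81 CPM on days 4, 6, 8 and 10, and the bridge means 3.26, 2.91, 6.17 and 8.74 CPM, and the bridge libraries of days 4 and 6 all lay below the intact ones, as 9.30% and 9.70% of all genes also did not overlap on those days. The margin was narrow, with at most 6.89 CPM on bridge day 4 and 6.05 CPM on bridge day 6 against 6.99 CPM in the lowest intact library. Over days 4 to 10 the log2 difference from iSCs was -2.46 ± 1.01 in dSCs and -2.99 ± 1.02 in bSCs (-2.23 ± 0.96 and -2.79 ± 0.97 without the near-identical pair), and the bridge was below the distal library in 7 of 10 same-animal pairs, or 7 of 9 without the near-identical pair. Neither difference from iSCs passed the threshold with all libraries, but the bridge value was -5.31 and passed without replicate 2 of bridge day 8, which held 18.5 CPM while the other 2 libraries of that day were at 0. Each of the 6 libraries of days 1 and 2 was above all 24 libraries of later days, of which the highest measured 18.5 CPM. The share of all genes that separate in this way was not counted, so nothing is read from it.

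The 10 myelin genes listed for comparison (among them Mbp and Pmp22, components of the sheath) summed to between 7328 and 35294 CPM in single iSCs, to between 4877 and 11597 CPM on day 1 and to between 3114 and 4674 CPM on day 2. Their median log2 difference from iSCs on day 2 was -1.75, with 0 of the 10 past the threshold in edgeR and 3 at an unadjusted p under 0.05, beside a median of -0.07 over all genes tested, and the difference between Gjb1 and these genes was not itself tested. Days 4 to 10 left sums between 890 and 2783 CPM in dSCs. In pooled libraries all 10 myelin genes were lower in dSCs than iSCs (adjusted p under the threshold in edgeR), as were 9 of 10 in bSCs. One of the day 2 libraries, replicate 0, which had the highest Gjb1, detected 10306 genes, fewer than any pooled library.

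Gjc3 also stood highest in pooled iSCs but kept more of its level in the bridge. Its values were 191, 233, 230 and 114 CPM in iSCs, 26.6, 18.4, 46.2 and 20.4 CPM in dSCs and 34.6, 98.5, 73.9 and 63.2 CPM in bSCs. Neither injured group overlapped with iSCs, as was so for 17.0% of all genes in dSCs and 25.0% in bSCs. The log2 fold change was -2.78 ± 0.40 in dSCs and -1.51 ± 0.38 in bSCs, and the bridge was above its distal partner in 4 of 4 pools, by 1.27 ± 0.38. With the animal pool as a block, the bridge difference from iSCs was -1.57 and no longer passed the threshold. It also did not pass without intact replicate 2, at -1.37. The difference between bridge and distal passed the threshold without bridge replicate 1 or distal replicate 3, at 1.49 and 1.63, and did not with all libraries.

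In single nerves Gjc3 was spread widely among the iSC libraries, which held 320, 316, 17.9, 124 and 24.6 CPM. The libraries with 17.9 and 24.6 CPM, replicates 3 and 5, were also those with the lowest myelin sums, 7401 and 7328 CPM. Day 1 dSCs measured 17.6, 0.12 and 27.3 CPM and day 2 dSCs 32.4, 18.7 and 22.6 CPM, so that Gjc3 was already low on the days when Gjb1 was high. Distal means from day 4 to day 10 stayed between 28.8 and 54.2 CPM. The bridge mean was 14.1 CPM on day 4 and 123 CPM on day 10, when the 3 libraries held 176, 109 and 83.6 CPM. Against iSCs, the mean of days 4 to 10 differed by -2.14 ± 0.66 in dSCs and -1.95 ± 0.66 in bSCs (-1.97 ± 0.70 and -1.84 ± 0.70 without the near-identical pair), and the bridge was above the distal library in 6 of 10 same-animal pairs, or 6 of 9 without the near-identical pair. Neither difference from iSCs passed the threshold with all libraries. Both passed without intact replicate 3 (-2.37 and -2.20) and without intact replicate 5 (-2.36 and -2.19), the distal one also without distal day 6 replicate 3 (-2.45) and the bridge one without bridge day 4 replicate 0 (-2.22).

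**Figure D2:**
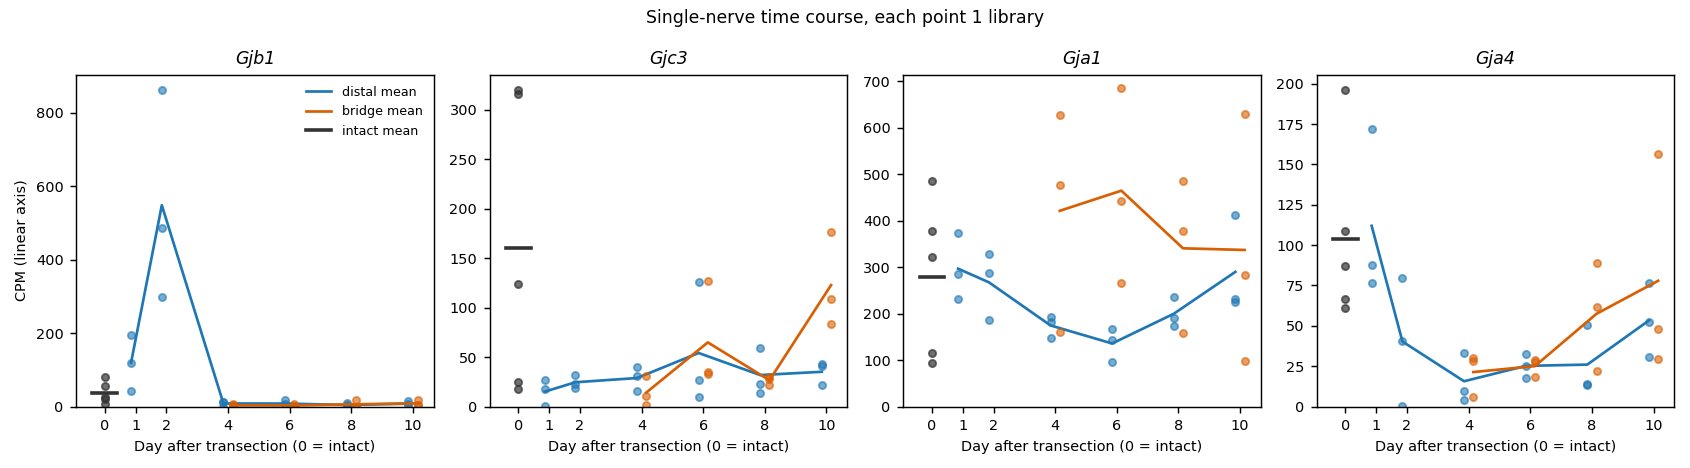
CPM on a linear axis is plotted against day after transection for single nerves, each point 1 library, with lines through distal (blue) and bridge (orange) means and intact libraries (black) at 0. The day 2 distal mean of Gjb1 reaches 549 CPM, whereas the Gjc3 mean is 24.6 CPM on that day and the bridge mean of Gja1 lies above its distal mean from day 4 onwards.

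Gja1 had its highest pooled mean in the bridge. The pooled iSC libraries held 138, 65.4, 134 and 97.4 CPM, the dSC libraries 107, 369, 163 and 165 CPM and the bSC libraries 398, 433, 186 and 651 CPM. Bridge libraries were all above intact ones, beside 25.0% of all genes that did not overlap there, and the distal libraries overlapped with both. Log2 fold changes were 0.89 ± 0.42 for dSCs and 1.94 ± 0.44 for bSCs against iSCs, and 1.05 ± 0.43 for bSCs against dSCs, with the bridge higher in 4 of 4 pools.

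Single iSC libraries held more Gja1, 94.4, 116, 323, 377 and 485 CPM, and the comparison with intact nerve came out differently there. The mean of distal days 4 to 10 was below iSCs by a log2 difference of -0.54 ± 0.37, the opposite sign to the pooled value, and that of the bridge was 0.47 ± 0.39 (-0.50 ± 0.37 and 0.55 ± 0.38 without the near-identical pair). Distal means were 297 and 267 CPM on days 1 and 2, 136 CPM on day 6 and 290 CPM on day 10. The bridge means of 421, 464, 340 and 337 CPM on days 4, 6, 8 and 10 were above the distal mean of the same day each time. Bridge against distal gave 1.01 ± 0.29 over days 4 to 10, with the bridge higher in 8 of 10 same-animal pairs and in 8 of 9 without the near-identical pair. It did not pass the threshold in the main fit or with the animal as a block. With the block and that pair left out, a setting added after seeing the data, the difference was 1.33 and passed, beside 1.10% of all genes. Fibroblast markers summed to between 17308 and 60223 CPM in single bSCs and between 23822 and 47414 CPM in dSCs of days 4 to 10. SC markers summed to between 167 and 2988 CPM in the single bSCs and 1079 to 2946 CPM in the single dSCs of those days. Fibroblast sums in pooled nerves ran from 19442 to 35278 CPM in bSCs and from 34352 to 50157 CPM in dSCs. The part of fibroblast RNA in the Gja1 levels was not tested.

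The vascular pair Gja4 and Gja5 followed another course. Gja4 was at 27.2, 18.8, 4.62 and 17.0 CPM in pooled iSCs, at 0.153, 7.06, 4.73 and 2.16 CPM in dSCs and at 9.96, 43.8, 7.73 and 0.140 CPM in bSCs, and all groups overlapped. Single iSCs held far more, 196, 109, 61.1, 66.4 and 87.0 CPM. The distal mean was 112 CPM on day 1 and 40.3 CPM on day 2, lay between 15.7 and 26.0 CPM on days 4, 6 and 8, and was 53.3 CPM on day 10. Every dSC library of days 4, 6 and 8 was below every iSC library, as was every bSC library of days 4 and 6. Libraries did not overlap with iSCs for 10.5%, 8.66% and 8.44% of all genes on those 3 distal days, and for 9.30% and 9.70% on the 2 bridge days. Over days 4 to 10 the log2 difference from iSCs was -1.93 ± 0.58 in dSCs and -1.40 ± 0.58 in bSCs. The distal difference was -1.73 without the near-identical pair and then did not pass the threshold. When each of the 17 libraries compared was left out in turn, it lay between -2.15 and -1.52 and passed only without replicate 0 of distal day 4 and without replicate 1 of distal day 8.

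Endothelial markers were measured beside Gja4. Their sum over 11 genes, including Pecam1, Cdh5 and Kdr, was between 1897 and 6057 CPM in single iSCs, between 187 and 896 CPM in pooled iSCs and between 449 and 675 CPM in single dSCs on day 4. At least 10 of the 11 had a count in every library. The part of endothelial RNA in the Gja4 levels was not tested.

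**Figure D3:**
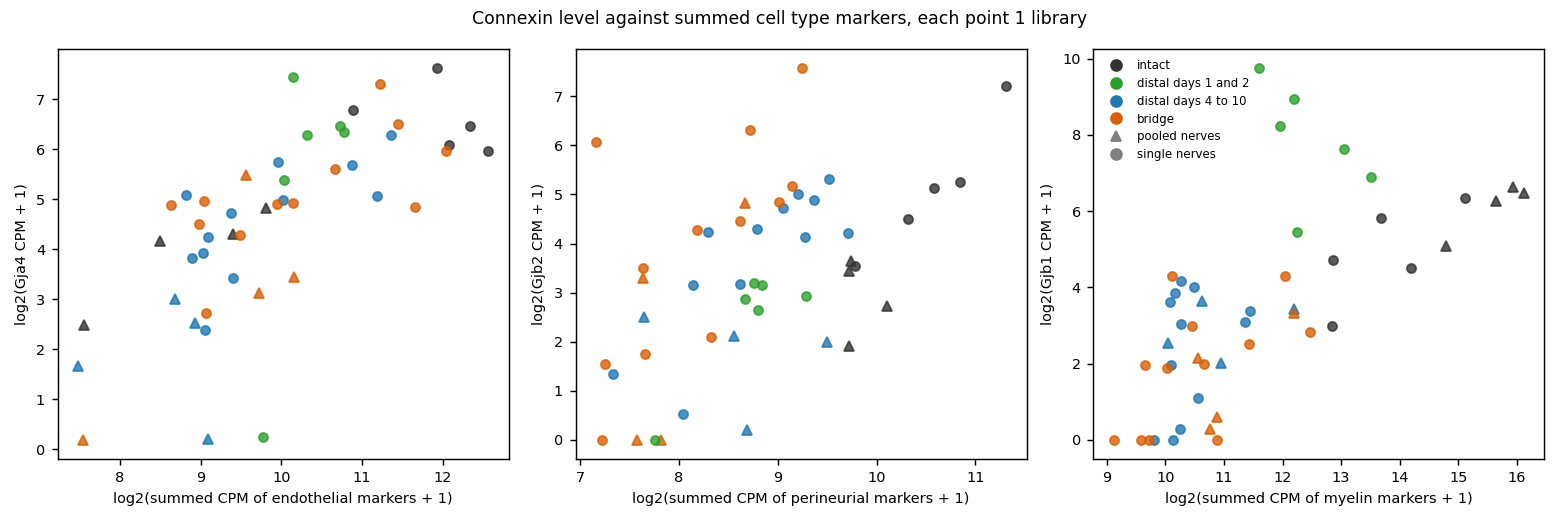
Each point is 1 library, with log2(CPM + 1) of Gja4, Gjb2 or Gjb1 against the log2 summed CPM of endothelial, perineurial or myelin markers; circles are single nerves and triangles pooled nerves. The 3 dSC libraries of day 2, among the green points, have the highest Gjb1 values of the panel, and their myelin sums, 4674 CPM or less, lie below those of all intact libraries.

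Gja5 was scattered, with a count of 0 in single libraries of intact, distal and bridge nerve. Its pooled values were 12.8, 5.04, 2.42 and 11.9 CPM in iSCs, 2.45, 0.673, 18.5 and 1.27 CPM in dSCs and 22.2, 19.9, 0.172 and 11.9 CPM in bSCs. In single nerves the iSC libraries held 41.4, 0, 44.3, 20.3 and 129 CPM. The 12 dSC libraries of days 4 to 10 ran from 0 to 19.8 CPM with a median of 6.26, and the 12 bSC libraries from 0 to 96.1 CPM with a median of 16.3. Bridge exceeded distal in 9 of 10 same-animal pairs, the remaining pair being the near-identical libraries, both at 0. The log2 difference between bridge and distal was 2.06 ± 1.01 (1.99 ± 0.98 without that pair) over days 4 to 10, and 1.24 ± 1.28 in the pooled experiment, where the bridge was higher in 3 of 4 pools. Endothelial sums had a median of 1058 CPM in the 12 bSC libraries and of 670 CPM in the 12 dSC libraries, and their part in the Gja5 levels was not tested.

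For Gjc1 the 3 pooled regions overlapped. Pooled iSCs held 25.0, 6.66, 10.4 and 9.84 CPM, dSCs 48.2, 0, 20.7 and 27.5 CPM and bSCs 32.5, 22.1, 5.24 and 26.4 CPM. The intervals of the fitted differences were wide, from -1.57 to 3.36 on the log2 scale for dSCs and from -1.72 to 3.19 for bSCs against iSCs (95%). In single nerves the 5 iSC libraries lay between 10.4 and 18.8 CPM, and the day 10 bridge libraries, at 44.3, 33.9 and 45.6 CPM, were all above them, with a log2 difference of 1.62 ± 0.70. Day 6 bridge libraries, at 20.2, 27.4 and 24.8 CPM, were also above every intact one. On those days 7.36% and 9.70% of all genes did not overlap with iSCs. The day 4 distal difference was 0.19 ± 0.71, and -0.74 ± 0.82 without the near-identical pair.

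Gjb2 and Gjb5, the epithelial members, were low in pooled libraries. Gjb2 measured 5.61, 2.75, 9.92 and 11.5 CPM in iSCs, 0.153, 2.96, 3.32 and 4.70 CPM in dSCs and 27.4, 8.78, 0 and 0 CPM in bSCs. In single nerves it was 37.2, 21.7, 146, 33.9 and 10.7 CPM in iSCs, and each dSC library of days 1, 2 and 4 was below all of these, at 8.14 CPM or less, beside 4.33%, 6.95% and 10.5% of all genes that did not overlap on those days. Distal means were then between 21.6 and 23.7 CPM on days 6, 8 and 10. The bridge reached 35.1, 78.3 and 66.2 CPM on day 10 and 190 CPM in 1 library of day 6. Perineurial markers, 5 genes that include Cldn1, summed to between 881 and 2537 CPM in single iSCs, to between 160 and 282 CPM in dSCs on day 4 and to between 142 and 564 CPM in bSCs on day 10, and their part in the Gjb2 levels was not tested. The epithelial sum of at most 25.7 CPM left the keratins and the other 3 genes of that list near 0.

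Gjb5 held 9.05, 4.78, 35.2 and 50.1 CPM in pooled iSCs, 8.80, 15.5, 34.8 and 17.6 CPM in dSCs and 12.1, 19.9, 5.76 and 9.42 CPM in bSCs. All regions overlapped. Its single-nerve means were 19.1 CPM in iSCs, between 19.1 and 35.6 CPM in dSCs and between 8.40 and 26.3 CPM in bSCs. The bridge lay below the distal library in 7 of 10 pairs, with a log2 difference of -0.73 ± 0.50 over days 4 to 10, and in 7 of 9 without the near-identical pair.

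Levels of different genes were compared per kilobase of their longest coding transcript. Pooled iSCs were led by Gjc3 at 54.6 ± 15.7 CPM per kb (SD, n = 4), Gjb1 at 46.6 ± 18.2 and Gja1 at 35.0 ± 10.99, neighbours whose ranges overlapped. In pooled dSCs Gja1 led at 64.7 ± 37.1 CPM per kb, 62.4% of the summed level of the 8 genes, and in pooled bSCs it held 71.3%. Both times its lowest library was above the highest library of the next gene. Single iSCs were led by Gja1 at 89.9 ± 54.6 CPM per kb and Gja4 at 61.6 ± 32.5, with Gjc3 at 45.7 ± 42.6, and these again overlapped. On distal day 2 alone Gjb1 led, at 346 ± 181 CPM per kb or 69.0% of the sum, clear of Gja1 at 86.1 ± 23.3. Gja1 was first in each other single-nerve group. The first-placed gene was the same with the length of all exons merged.

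**Figure D4:**
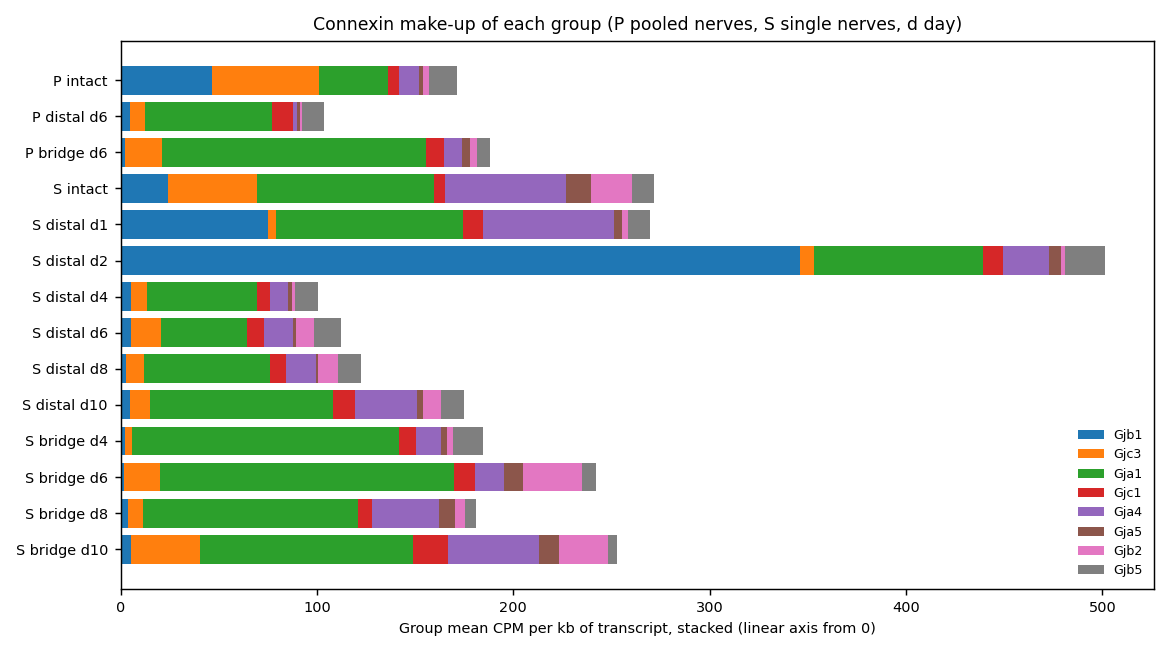
Stacked bars give the group mean CPM per kb of each of the 8 genes from 0 on a linear axis, for pooled (P) and single (S) nerves. Gja1 (green) takes 62.4% of the pooled distal and 71.3% of the pooled bridge bar, and Gjb1 (blue) takes 69.0% of the single-nerve distal day 2 bar.

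Counted over the whole table with edgeR (quasi-likelihood test, adjusted p under 0.05), 1 of the 8 members passed in pooled dSCs against iSCs, Gjc3, where 5.32% of 13751 genes tested did and 2.69% were lower. For bSCs against iSCs 3 of 8 passed, Gja1 higher and Gjb1 and Gjc3 lower, beside 14.7% of all genes (7.24% higher and 7.46% lower), and for bSCs against dSCs 0 of 8 passed beside 5.43%, with 2 at an unadjusted p under 0.05 and 1 (Gjc3) by DESeq2. Over all genes tested for bSCs against dSCs, 2957 of 13751 had an unadjusted p under 0.05, and DESeq2 called 14.5%. Libraries did not overlap for 2 of 8 members in the first of these comparisons, 3 of 8 in the second and 0 of 8 in the third, beside 17.0%, 25.0% and 15.4% of all genes. Since every library entered the choice of members, these counts are a description.

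Single nerves gave 0 of 8 calls on day 1 beside 0.180% of 15519 genes, 0 on day 2 beside 0.445%, 1 (Gja4) for distal days 4 to 10 beside 5.32% (3.49% lower), 0 for bridge days 4 to 10 beside 9.34% and 0 for bridge against distal beside 0.103%. At an unadjusted p under 0.05 edgeR had 2 members on day 1, 3 on day 2, 3 in the bridge against iSCs and 2 in the bridge against dSCs. Of the 15519 genes tested, 1048, 1412, 3679 and 1398 had such a p in these comparisons. DESeq2 called 1, 0, 1 and 1 in the same comparisons, beside 2.06%, 3.07%, 14.6% and 3.67% of the genes it tested. Libraries did not overlap with iSCs for 1 member on day 1 (Gjb2) and 2 on day 2 (Gjb1 and Gjb2), beside 4.33% and 6.95% of all genes. The median log2 difference of the 8 was -0.95 in pooled dSCs and 0.07 in pooled bSCs against iSCs, beside -0.02 and -0.16 over all genes tested.

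**Figure D5:**
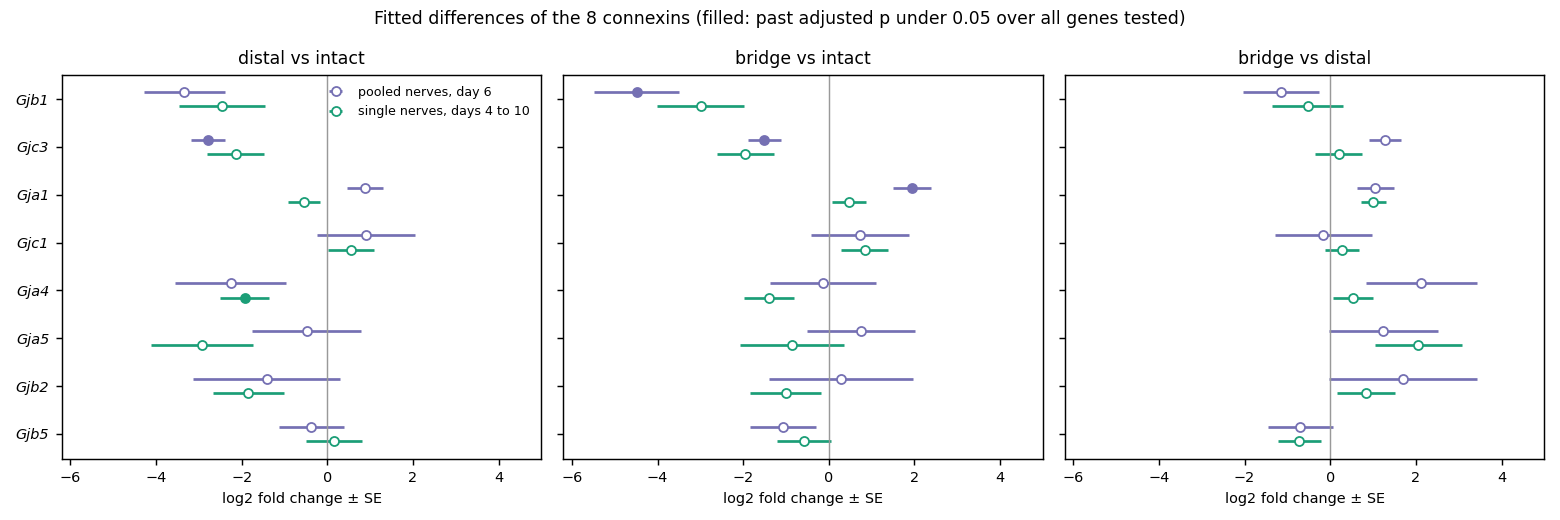
Points are fitted log2 fold changes and bars their SE, for pooled nerves at day 6 (purple) and single nerves over days 4 to 10 (green); filled points passed adjusted p under 0.05 over all genes. Gjb1 and Gjc3 lie below 0 against intact nerve in both experiments, Gja1 lies above 0 for bridge against distal in both, and distal Gja1 against intact has opposite signs.

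Of the other connexins, Gja10, Gjd2 and Gjd4 had no count in any of the 47 libraries. Gjb6 held 0, 0, 32.8, 4.89 and 3.31 CPM in single iSCs and at most 0.161 CPM in any single bSC library (edgeR adjusted p = 0.0084). Group means of at least 1 CPM were also found for Gja6, with a highest value of 11.96 CPM on distal day 2, and for Gjd3, with 1.77 CPM on bridge day 10.

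Of the pannexins, which form channels without docking, Panx1 had a count in all 47 libraries. It rose from 12.01, 19.3, 4.62 and 8.71 CPM in pooled iSCs to 63.9, 40.2, 110 and 95.8 CPM in bSCs, a log2 fold change of 2.79 ± 0.81 (edgeR adjusted p = 0.035), and the call was lost with the animal pool as a block (adjusted p = 0.19). Single bSCs differed from iSCs by 0.64 on the log2 scale, which did not pass. Panx2 and Panx3 had a count in 1 library each.

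Among 14 genes whose products bind, anchor or modify connexins, all of which were tested, 2 fell in pooled dSCs against iSCs, 3 rose and 1 fell in bSCs against iSCs, and 0 passed between bSCs and dSCs by edgeR, where 4 had an unadjusted p under 0.05 and DESeq2 called Cnst and Dbn1. Between bSCs and dSCs, 2957 of all 13751 genes tested had an unadjusted p under 0.05, and DESeq2 called 14.5%. Cdh2 (N-cadherin) was one of those that fell in dSCs, by 2.14 ± 0.47 on the log2 scale, with an edgeR adjusted p of 0.020, or 0.14 with the animal pool as a block. In bSCs the actin-binding Dbn1 rose by 1.30 ± 0.32 and Ezr by 1.33 ± 0.32 (edgeR adjusted p = 0.014 for each), and Ctnnb1 by 0.78 ± 0.25 (adjusted p = 0.049), while Prkca, a kinase that phosphorylates Gja1 protein, fell by 2.33 ± 0.71 (adjusted p = 0.043). The block gave adjusted p of 0.058, 0.053, 0.053 and 0.072 for these 4, so that none passed. The median of the 14 was -0.18 in dSCs and -0.16 in bSCs against iSCs, beside -0.02 and -0.16 over all genes.

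In single nerves Tjp1, the scaffold that binds the tail of Gja1 protein, fell in both regions over days 4 to 10, by 1.37 ± 0.33 in dSCs and 1.55 ± 0.32 in bSCs (edgeR adjusted p = 0.012 and 0.0034), and Ezr rose in both, by 1.59 ± 0.48 and 1.71 ± 0.48 (adjusted p = 0.046 and 0.023). The distal Ezr call was lost under 19 of its 24 alternatives. Cav1, the coat protein of caveolae, fell by 2.13 ± 0.38 in dSCs (adjusted p = 0.0013), and Dbn1 rose by 1.45 ± 0.39 in bSCs (adjusted p = 0.018). Cav1 is abundant in endothelium, and its mean was 1891 CPM in single iSCs and 733 CPM in pooled iSCs. Endothelial sums ran from 1897 to 6057 CPM in the single and from 187 to 896 CPM in the pooled iSCs. The part of endothelial RNA in the Cav1 levels was not tested. On days 1 and 2 none of the 14 passed by edgeR, with 1 and 4 at an unadjusted p under 0.05, and DESeq2 called Cdh2 on both days and Tjp1 on day 2. Of all 15519 genes tested, 1048 and 1412 had an unadjusted p under 0.05 on those days, and DESeq2 called 2.06% and 3.07%.

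The genes whose profile was most like that of each member were sought over the 35 single-nerve libraries, by Pearson r of log2 CPM and without a test, since the libraries share groups and depth. Gja4 was closest to Sox17 (r = 0.87), a gene of arterial endothelium, followed by Pdp2 (0.83) and B4galt4 (0.81). Over the 12 pooled libraries the r was 0.43 with Sox17, 0.21 with Pdp2 and 0.22 with B4galt4. Gjb1 was closest to Gm694 (0.77), Chn1 (0.75) and Mbp (0.72), with 0.83 for Chn1 and 0.84 for Mbp in pooled libraries, and Gjc3 to Gal3st1 (0.76), which makes the myelin lipid sulfatide, Scamp5 (0.75) and Phgdh (0.73), with 0.77, 0.87 and 0.70 in pooled libraries. Gjb2 was closest to Cldn1 (0.83), a tight junction gene and one of the perineurial markers above, with 0.62 in pooled libraries, and then to Gpatch2l (0.77) and Pik3r3 (0.74), with 0.45 and -0.42.

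Gja1 was closest to 3300002I08Rik (0.74), Tnfrsf9 (0.73) and Chst15 (0.72), with -0.41, 0.16 and -0.10 over pooled libraries. Gjb5 was closest to Tmem141 (0.77), Plekha3 (0.75) and Abi3bp (0.72), with -0.08, -0.31 and 0.40. Gja5 was closest to Sept7 (0.76), Pitpnb (0.75) and Mtf2 (0.72), with 0.34, 0.32 and 0.53, and Gjc1 to Ints8 (0.79), Crot (0.75) and Pdik1l (0.72), with 0.71, -0.58 and 0.61.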

How the data were processed

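Sorted tdTomato+ SCs were profiled by Smart-seq2 (unstranded, polyA RNA). According to the labels and methods, the authors aligned reads to mm9 with TopHat2 2.0.11, used HTSeq for gene-level counting, and the values they deposited are raw counts. Here, lanes of a library were summed (8 pooled libraries had 2 lanes), and rows that name no gene (55.7% to 64.9% of counts) and spike-ins were left out. Groups came from the labels. Levels are counts per 1000000 with TMM factors. Tests used edgeR 4.0.16 in R 4.3.3 (quasi-likelihood, filterByExpr, Benjamini-Hochberg adjustment over all genes tested), with 1 fit over the 12 pooled libraries and 1 over the 35 single-nerve libraries. Their code was run on simulated counts with the same spread for every gene and changes only in well-counted genes. That check does not cover low or widely scattered genes. All comparisons with intact nerve within an experiment share its intact libraries. DESeq2 1.42.0, other filters, leave-one-out fits and a replicate block were alternatives. Totals limit precision at low counts.

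Animal labels pair regions of a mouse or pool. The mean correlation of deviations from group means was -0.014 over 10 pooled pairs and 0.16 over 10 single-nerve pairs (0.099 over 9 without the near-identical day 4 pair). One day 10 bridge library whose animal labels disagree, and another with no distal partner, were left out of pairs.

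Members, gene lists and tests were chosen with earlier results of these data known. Every member is described in every comparison. Other connexins, pannexins and partners are named when they passed in a pooled comparison or reached a group mean of 1 CPM (connexins, pannexins), with partners that passed in single nerves added after their values were seen, and the 3 genes most like each member are given. The cultured rat libraries were not analysed here. Some genes of the lists are not reported here.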

Additional observations from a re-analysis of the deposited data

Results flagged for a closer look

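Among 32 groups of 4 or 5 libraries, 3 held a library far from the others of its group, and chance alone marks about 1 group in 20. Gja5 measured 18.5 CPM in replicate 3 of pooled dSCs, where the other 3 libraries lay between 0.673 and 2.45 CPM. Gjb2 measured 146 CPM in replicate 3 of single iSCs, against 10.7 to 37.2 CPM in the others. Gjb5 measured 50.8 CPM in replicate 0 of single iSCs, against 5.92 to 16.2 CPM in the others.

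Of 224 comparisons between the effects of 2 groups, 8 had every library of one group above the intact mean and every library of the other below it, and all 8 were of Gjb1 in dSCs. The day 1 mean was 80.7 CPM above the intact mean of 38.0 CPM and the day 2 mean 511 CPM above it. The means of days 4, 6, 8 and 10 differed from the intact mean by -29.7, -29.9, -33.8 and -30.2 CPM. These differences between days were not tested, and all share the same 5 intact libraries.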

How the results depend on the processing

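Of the members' log2 fold changes, 412 were counted as kept under the alternatives that leave out no single library. For values past the threshold both times this meant the same direction. For values that passed neither time it meant a shift within the SE of the main fit, whatever the sign. A further 23 moved by more than that SE without passing, 11 newly passed and 3 no longer passed. None reversed among called values. Over leave-one-out fits these counts were 745, 13, 10 and 16. Members called in pooled dSCs against iSCs numbered 2 with DESeq2 and 2 with only the libraries compared (Gjb1 and Gjc3), and 1 to 2 over leave-one-out fits, the second being Gjb1 without intact replicate 5. DESeq2 called 10.4% of all genes there, the fit with only the libraries compared 6.64% and leave-one-out fits 2.21% to 7.11%. For pooled bSCs against iSCs leave-one-out fits gave 2 to 3, with Gjc3 lost without intact replicate 2, beside 9.40% to 14.7% of all genes. For pooled bSCs against dSCs DESeq2 gave 1 and leave-one-out fits 0 to 1 (Gjc3, without bridge replicate 1 or distal replicate 3). Those leave-one-out fits called 2.31% to 5.63% of all genes. In single nerves DESeq2 gave 1 on day 1 (Gjc3) and 0 on day 2, and leave-one-out fits gave 0 to 0 on both days. Distal days 4 to 10 gave 2 with DESeq2, 2 with the filter of the study (100 counts in 85% of libraries), 0 without the near-identical pair, 0 without the libraries with few genes detected and 0 to 1 over leave-one-out fits, where the Gja4 call held only without replicate 0 of day 4 and without replicate 1 of day 8. The filter of the study kept only 5 of the 8 members. In that comparison DESeq2 called 10.8% and the filter of the study 9.61% of all genes tested, beside 5.32% in the main fit. Without the near-identical pair 3.44% were called, without the libraries with few genes detected 3.21%, and over leave-one-out fits 2.65% to 5.40%. Bridge days 4 to 10 gave 1 with DESeq2, 1 with no filter, 1 with the filter of the study and 0 to 1 over leave-one-out fits, with Gjc3 called without intact replicate 3, intact replicate 5 or bridge day 4 replicate 0, and Gjb1, at -5.31, without bridge day 8 replicate 2. All genes called there made up 14.6% with DESeq2, 8.52% with no filter and 10.1% with the filter of the study, beside 9.34% in the main fit. Leave-one-out fits called 6.35% to 8.51% there. Bridge against distal gave 1 with DESeq2, 0 to 0 over leave-one-out fits, 0 with the replicate block and 1 (Gja1) with the block and the near-identical pair left out. Of all genes, DESeq2 called 3.67% there, leave-one-out fits 0.0187% to 0.605% and the block 1.46%. The block without the near-identical pair called 1.10%, beside 0.103% in the main fit. Without that pair, and without the libraries with few genes detected, both added after seeing the data, the Gja4 difference in dSCs was -1.73 and -1.34. With the animal pool as a replicate block, pooled members called numbered 1, 2 and 0, beside 2.09%, 7.04% and 1.72% of all genes tested. The rat comparison and its alternatives were not run. The cause of these shifts was not tested.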
